A study of Homo sapiens with 2 samples.

Results

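The genes described here are 10 genes of the epithelial to mesenchymal transition, out of 19974 protein-coding genes on chromosomes 1 to 22 and X. They were listed by name: the epithelial genes CDH1 and EPCAM, the mesenchymal genes CDH2, VIM and PDGFRB, and the transcription factor genes ZEB1, ZEB2, SNAI1, SNAI2 and TWIST1. For each gene, every called summit inside the RefSeq gene span or within 5 kb of it was taken from both peak lists. A summit is the highest point of a called peak. The data were chromatin immunoprecipitation and sequencing (ChIP-seq) peaks obtained with an antibody against TCF19, a nuclear protein whose PHD finger domain is of a kind that binds histone tails. The cells were Ishikawa cells, an established line from a human endometrial cancer. Cells infected with a lentivirus that overexpresses TCF19 were compared with cells infected with a control lentivirus, labelled negative control, and both populations were selected with puromycin. Each group had 1 library, so there was no replicate and no test of the condition, and intervals given below are 95% intervals that cover counting error only. RNA and protein were not measured in these files, so the epithelial or mesenchymal state of the cells cannot be read from them.

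In the epithelial to mesenchymal transition, cells that adhere to each other through E-cadherin loosen their junctions and take on a motile, fibroblast-like form. Transcription factors of the ZEB, SNAI and TWIST families drive the programme. The ZEB and SNAI proteins bind E-boxes of the sequence CACCTG or its reverse complement CAGGTG and repress epithelial genes, with CDH1 the best known target. In endometrial carcinoma, loss of E-cadherin and gain of these factors are known from aggressive disease.

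The overexpression list held 111569 summits on chromosomes 1 to 22 and X and the control list 169542. The whole-number pileup (overlapping sequenced fragments) at each summit was recovered from the deposited fold and p-value. The genome-average pileup was 1.429 in the overexpression library and 1.582 in the control library, so the depth of the overexpression library was 0.903 of the control depth. To set the libraries side by side, pileups were divided by these averages, which gives a relative pileup in times the genome average. The local background at a summit, the pileup the peak caller expected there, was expressed the same way. At the gene of the transgene itself, TCF19, the overexpression library had 3 summits with up to 143 reads and control had 0.

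All 10 genes had at least 1 summit in the overexpression library and 9 had one in control, where SNAI1 had none. Such windows were commonly called: 87.2% of all protein-coding genes had a summit in the overexpression library and 85.4% in the control library. The 4 genes of 90 kb or more (CDH1, CDH2, ZEB1 and ZEB2) all had summits in both libraries, as did 99.4% of genes of that size in the overexpression library and 99.6% in control. Of the 6 shorter genes, the overexpression library had a summit at 6 and control at 5, beside 84.4% and 82.1% of all shorter genes. Over the 10 windows, 873.3 kb in all, there were 50 summits in the overexpression library and 37 in the control library. This is 0.573 summits per 10 kb in the overexpression library and 0.424 in the control library. Over the windows of all protein-coding genes the order was the opposite, with 0.515 per 10 kb in the overexpression library and 0.691 in the control library. The median gene of the 10 had 0.675 summits per 10 kb in the overexpression library and 0.430 in the control library, and the median protein-coding gene had 0.634 and 0.746 in the same libraries.

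Of the 10 genes, 7 had more summits in the overexpression library, and the surplus was greatest at PDGFRB. An interval can hold several summits, and by intervals the windows had 41 in the overexpression library and 35 in control, with more in the overexpression library at 5 genes, fewer at 4 and the same number at ZEB2. Without PDGFRB the other 9 genes had 43 overexpression and 36 control summits, and 34 intervals in each library. CDH1 had 5 summits in the overexpression library and 6 in the control library, and EPCAM had 2 and 3 in the same libraries. The mesenchymal genes together had 19 in the overexpression library and 10 in the control library, and the transcription factor genes 24 and 18. More summits in the overexpression library than in control was the pattern at 26.6% of all protein-coding genes, and fewer at 48.8%. With the control list cut to the length of the overexpression list by fold, the windows held 50 summits in the overexpression library and 23 in the control library. The order turned round in a setting chosen after seeing the data: with local background limited to 3 times the genome average, 34 overexpression and 36 control summits were left. Most of the overexpression summits dropped there were at PDGFRB, CDH2 and TWIST1, and the part of background in the difference between the libraries was not tested.

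**Figure D1:**
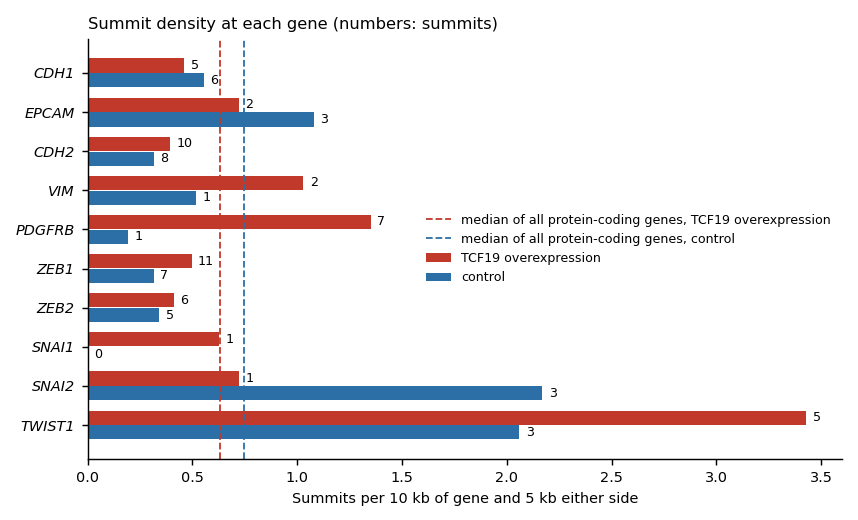
Summits per 10 kb (horizontal axis) in each gene and 5 kb either side, with bars for the overexpression library above those for control and the number of summits beside each bar; dashed lines mark the median of all protein-coding genes. TWIST1 has the highest density in the overexpression library (3.43) and SNAI2 the highest in control (2.17), both in short windows where 1 summit weighs much.

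Summits were common at the starts of these genes, as they were at the starts of protein-coding genes in general. Within 2000 bp of the start, 9 genes had a summit in the overexpression library (all but ZEB2) and 7 in control (all but PDGFRB, ZEB2 and SNAI1). Among 15813 protein-coding genes of known strand, 67.8% had such a summit in the overexpression library and 57.5% in the control library. Within 1000 bp the counts were 7 genes in each library, against 62.3% of protein-coding genes in the overexpression library and 50.4% in the control library. The other end of the gene was called less often, with a summit within 2000 bp at 3 genes in the overexpression library and 2 in the control library (23.1% and 26.0% of all genes).

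Peaks at starts were wider and stood on a higher local background than peaks elsewhere in the windows. The 21 overexpression summits within 2000 bp of a start had a median of 16 reads and a median local background of 2.80 times the genome average. The 13 control summits there had a median of 13.0 reads and a background of 2.07 times. Farther away, the 29 overexpression summits had a median of 14.0 reads at a background of 1.43 times and the 24 control summits 11.5 reads at 1.19 times. The median width of intervals at starts was 628 bp in the overexpression library and 519 bp in control, against 429 bp and 441 bp farther away. The same contrast held across all genes: summits within 2000 bp of any start had a median background of 2.20 times the average in the overexpression library and 1.76 times in the control library, and those farther away 1.47 and 1.17 times.

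**Figure D2:**
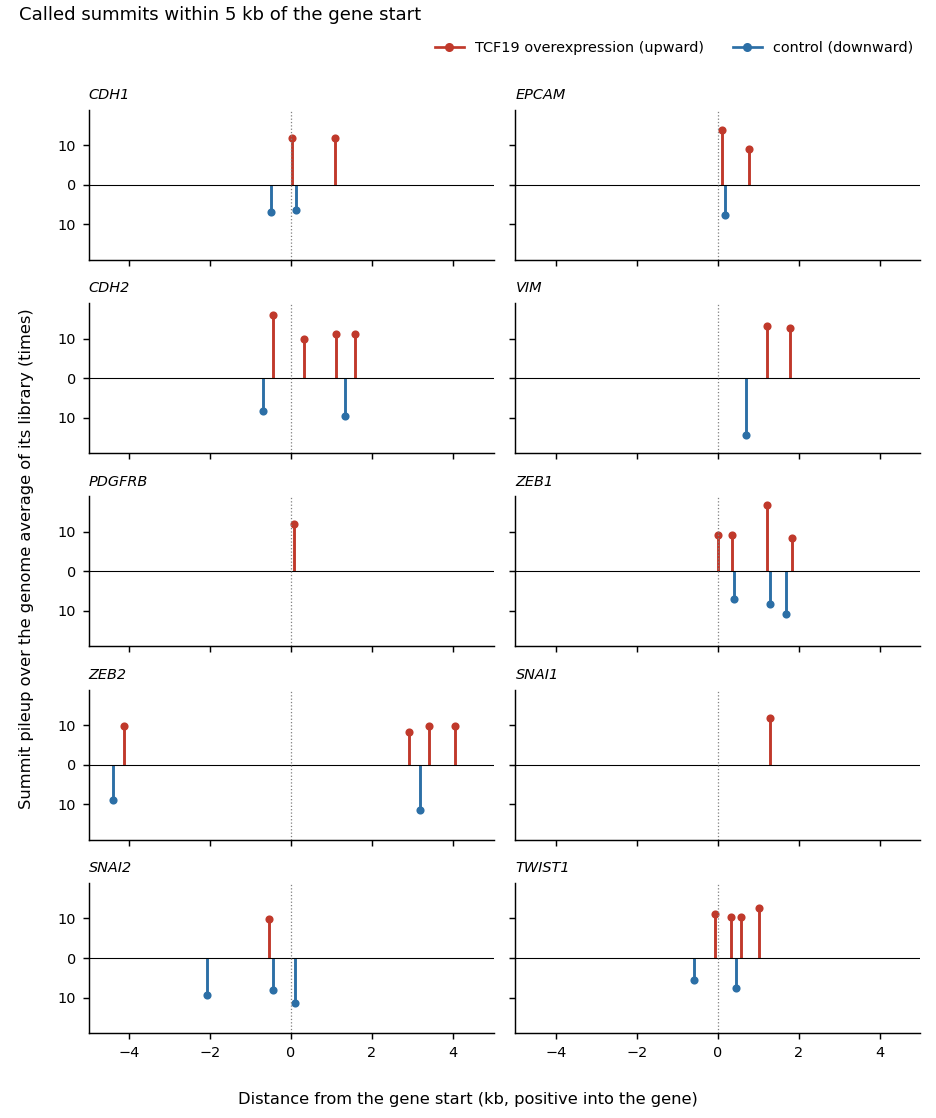
Called summits within 5 kb of each gene start (horizontal axis, kb, positive into the gene), with height in times the genome average; overexpression summits point upward and control summits downward. PDGFRB and SNAI1 have summits in the overexpression library alone, and ZEB2 has none within 2000 bp of its start in either library.

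CDH1 encodes E-cadherin, the adhesion protein of epithelial junctions, on chromosome 16 (68737292 to 68835537, hg38). It had a peak at its start in both libraries. In the overexpression library the summit lay 25 bp inside the gene with 17 reads (exact Poisson interval 9.9 to 27.2), and a second of 17 reads lay 1092 bp inside. In control the nearest summits lay 129 bp inside with 10 reads (4.8 to 18.4) and 498 bp before the start with 11 reads (5.5 to 19.7). Relative pileup at the paired start summits was 11.9 times the genome average in the overexpression library and 6.32 times in the control library, a ratio of 1.88 (0.81 to 4.60), and the counting intervals overlapped. Both libraries also had a peak just past the far end, 1481 bp beyond it with 14 reads in the overexpression library and 1664 bp beyond it with 11 reads in control. Between these places the libraries had no interval in common. The overexpression library had summits of 10 reads each, 58793 and 81189 bp from the start. Control had summits of 16, 11 and 15 reads at 24007, 51727 and 57478 bp.

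EPCAM encodes an epithelial surface adhesion protein and lies on chromosome 2 (47369311 to 47387020). A single overexpression interval of 1072 bp covered its start, with summits 104 bp inside (20 reads, 12.2 to 30.9) and 767 bp inside (13 reads, 6.9 to 22.2). The control peak there had 12 reads (6.2 to 21.0), 168 bp inside. Relative pileup at the paired summits was 14.0 times the average in the overexpression library and 7.59 times in the control library (ratio 1.85, 0.86 to 4.14), with local backgrounds of 2.20 and 2.24 times. Control had 2 more summits in the gene body, with 10 reads at 6482 bp and 14 reads at 15286 bp from the start, and the overexpression library had none there.

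CDH2 encodes N-cadherin, the mesenchymal and neuronal cadherin, and spans 244252 bp of chromosome 18 (27932879 to 28177130, minus strand). It had 10 summits in the overexpression library and 8 in the control library. Around the start the overexpression library had summits of 23 reads (14.6 to 34.5) at 435 bp before it, and of 14, 16 and 16 reads at 319, 1105 and 1574 bp inside. Control had 13 reads (6.9 to 22.2) at 687 bp before the start and 15 reads (8.4 to 24.7) at 1320 bp inside. The overlapping upstream peaks had a ratio of 1.96 (0.95 to 4.21). Local background there was 3.48 times the genome average in the overexpression library and 2.24 times in the control library, and its part in the difference was not tested. The 250 bases before the start are shown because the peaks of the libraries lie differently on them: the control interval covers 235 of them and the overexpression intervals cover 0, lying to either side. The sequence is RefSeq's for GRCh38.p14, chr18:28177131-28177380, minus strand, and is 66.0% G or C with 17 CpG.
CDH2 promoter: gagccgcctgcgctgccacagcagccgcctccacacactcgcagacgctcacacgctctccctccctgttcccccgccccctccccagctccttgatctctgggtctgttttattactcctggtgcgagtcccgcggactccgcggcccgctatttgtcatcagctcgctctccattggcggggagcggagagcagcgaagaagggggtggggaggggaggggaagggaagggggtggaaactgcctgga
It holds no E-box of the general form CANNTG, in which N is any base, so no letter is in capitals; 61.8% of the 35116 promoter windows of this length hold one.

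Far inside CDH2, 4 peaks were called at the same places in both libraries. The summits lay 31, 23, 66 and 17 bp apart, at 235897, 201596, 129460 and 43688 bp from the start in the overexpression library. There, the overexpression library had 12, 10, 11 and 13 reads and control 8, 18, 10 and 7 reads, in the same order. The 18 control reads at 27975557 gave the highest fold of all control summits in the 10 windows (7.36, the authors' value). The first of the 4 also lies in the antisense gene CDH2-AS1, so it cannot be assigned to either gene. Each stood at or close to the genome-average background, unlike the peaks at the start.

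VIM encodes vimentin, the intermediate filament protein of mesenchymal cells, on chromosome 10 (17228241 to 17237593). Its peaks lay downstream of the start in both libraries, and neither library had an interval on the 250 bases before it. Control had 1 summit of 23 reads (14.6 to 34.5), 683 bp inside, the highest pileup of control in the 10 windows. The overexpression library had 19 reads (11.4 to 29.7) at 1207 bp and 18 reads (10.7 to 28.4) at 1777 bp. The overlapping pair lay 524 bp apart and had relative pileups of 13.3 times the average in the overexpression library and 14.5 times in the control library, a ratio of 0.91 (0.47 to 1.76). VIM-AS1, an antisense gene, covers the control summit and the first overexpression summit.

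PDGFRB encodes the platelet-derived growth factor receptor beta, a tyrosine kinase of fibroblasts and pericytes, on chromosome 5 (150113839 to 150155845, minus strand). It differed most between the lists, with 7 summits in the overexpression library and 1 in the control library. A surplus of at least 6 summits in the overexpression library was seen at 0.661% of protein-coding genes. Both libraries had the same peak in the gene, with summits 1 bp apart, 8615 bp from the start in the overexpression library (24 reads, 15.4 to 35.7) and 8616 bp from it in control (20 reads, 12.2 to 30.9). Its ratio of relative pileups was 1.33 (0.70 to 2.54).

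The other 6 PDGFRB summits were called in the overexpression library alone. They had 17 reads (9.9 to 27.2) at 75 bp inside the start, 16 at 11978 bp, 17 at 22879 bp, 20 at 31647 bp and 23 at 40109 bp. The last had 14 reads, 4826 bp past the far end and inside the neighbouring gene CSF1R. Brought to the control depth these pileups correspond to 15.5 to 25.5 reads, and 11 to 16 reads would have been needed for a call at equal relative background. Control was deeper and had the lower lowest called −log10 p, so the pileups met this need largely by construction. At 5 of the 6 the lower counting limit, scaled the same way, was below the pileup needed, and the exception was the summit of 23 reads. Control's own background at these places was not known. The missing control calls therefore do not establish a difference at any of the 6. The region had a high local background in both libraries, with a median of 4.02 times the genome average at the overexpression summits and 3.80 times at the control summit. In the 180 kb of flanks, 10 to 100 kb from the gene, the number of summits was similar, with 14 in the overexpression library and 12 in the control library, and the median background was 3.02 times the average in the overexpression library and 3.61 times in the control library.

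**Figure D3:**
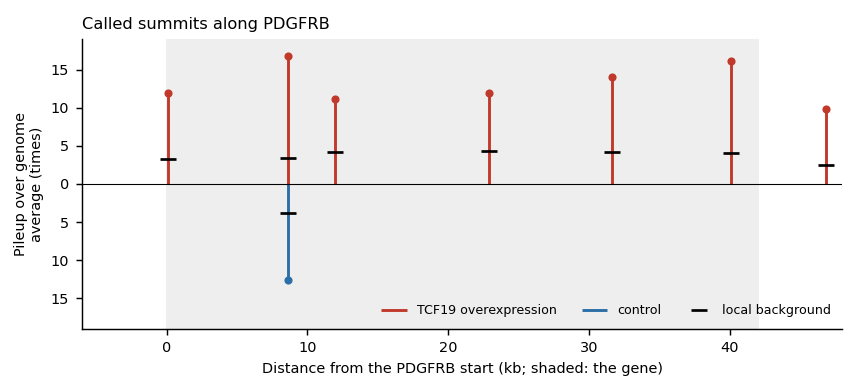
Called summits along PDGFRB (horizontal axis, kb from the start), with height in times the genome average, overexpression upward and control downward; black ticks give the local background. The 7 overexpression summits run from the start to past the far end, and the 1 control summit stands at the position of the highest overexpression summit.

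The promoter of PDGFRB is shown because the overexpression peak at the start, with its summit in the first bases of the gene, covers 139 of the 250 bases before it and the control list covers 0. It is chr5:150155846-150156095 of GRCh38.p14, minus strand, 58.4% G or C with 9 CpG. Capitals mark its only CANNTG box, CAGCTG, whose first base lies 102 bases before the start.
PDGFRB promoter: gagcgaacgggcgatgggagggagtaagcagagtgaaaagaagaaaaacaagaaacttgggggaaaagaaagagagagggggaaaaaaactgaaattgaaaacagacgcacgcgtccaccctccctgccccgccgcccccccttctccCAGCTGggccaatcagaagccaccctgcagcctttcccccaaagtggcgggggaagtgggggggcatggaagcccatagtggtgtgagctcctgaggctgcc
This box is not of the CACCTG or CAGGTG form, which is held by 17.5% of all promoter windows of this length. A match of letters is a description and not a bound site.

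ZEB1 encodes a zinc finger repressor of E-cadherin and spans 211388 bp of chromosome 10 (31318417 to 31529804, plus strand). It had 11 summits in the overexpression library and 7 in the control library. Its promoter region holds several RefSeq starts, and peaks of both libraries covered them. In the overexpression library the summits lay 1, 349, 1207 and 1823 bp from the first start, with 13, 13, 24 and 12 reads. In control they lay 393, 1287 and 1687 bp from it, with 11, 13 and 17 reads. The greatest pileup was at 1207 bp in the overexpression library (24 reads, 15.4 to 35.7) and at 1687 bp in control (17 reads, 9.9 to 27.2). Paired within 80 bp, the 24 reads of the overexpression library and 13 of control gave a ratio of 2.04 (1.00 to 4.37), while the next pair, 136 bp apart, gave 0.78 (0.34 to 1.74). The antisense gene ZEB1-AS1 covers all 7 of these summits. Local background was 2.32 to 2.40 times the average in the overexpression library and 1.48 to 1.54 times in control.

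RefSeq gives 7 promoter windows of ZEB1, of which 5 lay at least in part under an interval: 3 under intervals of both libraries, 1 under the overexpression list only and 1 under the control list only. Of these, 3 are shown, the one under an overexpression interval alone and the pair that held summits of both libraries. Not shown are the window at 31320304 to 31320553, under intervals of the overexpression library over 250 bases and of control over 48, and that at 31318966 to 31319215, with 0 bases under the overexpression list and 20 under the control list. The window at 31318966 holds both CACCTG and CAGGTG. The first of those shown, chr10:31318167-31318416, is covered over 130 bases by the overexpression list and over 0 by the control list. It holds 2 CANNTG boxes, in capitals: CATCTG, and CAGGTG of the ZEB and SNAI form, whose first base lies 57 bases before the start.
ZEB1 promoter at the first start: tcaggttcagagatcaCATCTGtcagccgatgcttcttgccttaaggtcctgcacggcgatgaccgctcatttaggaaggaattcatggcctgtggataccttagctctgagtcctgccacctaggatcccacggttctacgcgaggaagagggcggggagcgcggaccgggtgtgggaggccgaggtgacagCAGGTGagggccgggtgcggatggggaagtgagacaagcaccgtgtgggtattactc
The second, chr10:31318568-31318817, holds a summit of each library, 52 bp before its start in the overexpression library and 8 bp before it in control. It is 70.4% G or C with 21 CpG and holds no CANNTG box.
ZEB1 promoter at 31318818: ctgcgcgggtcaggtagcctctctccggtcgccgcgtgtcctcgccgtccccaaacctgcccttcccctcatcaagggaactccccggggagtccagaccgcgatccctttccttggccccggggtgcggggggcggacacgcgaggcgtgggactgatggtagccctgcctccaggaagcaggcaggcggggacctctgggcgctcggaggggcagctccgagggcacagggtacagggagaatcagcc
The third, chr10:31319518-31319767, lies wholly under intervals of both libraries. The summits lie 144 bp before its start in the overexpression library and 64 bp before it in control. It is 73.6% G or C with 27 CpG, also without a CANNTG box, where the median promoter window is 58.0% G or C with 11 CpG.
ZEB1 promoter at 31319768: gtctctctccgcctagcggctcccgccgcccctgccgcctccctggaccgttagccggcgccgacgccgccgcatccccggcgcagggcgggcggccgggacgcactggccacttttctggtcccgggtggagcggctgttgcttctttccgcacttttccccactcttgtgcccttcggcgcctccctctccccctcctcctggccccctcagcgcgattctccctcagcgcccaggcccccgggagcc

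Deep in ZEB1, 3 peaks recurred in both libraries. The summits 130815 bp from the start lay 6 bp apart, with 16 reads in the overexpression library and 13 in the control library (ratio 1.36, 0.61 to 3.08). Those at 151092 bp lay 4 bp apart, with 10 reads in the overexpression library and 13 in the control library (0.85, 0.33 to 2.1). At 43551 bp the overexpression library had 22 reads and control 20, 278 bp apart (1.22, 0.63 to 2.35). The overexpression library alone had summits of 16, 18, 11 and 12 reads at 45585, 45951, 93200 and 109340 bp. Control alone had 10 reads at 189901 bp.

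ZEB2 encodes the second ZEB repressor, on chromosome 2 (144384081 to 144520119, minus strand). It differed from the other genes in having no summit within 2000 bp of its start in either library. The closest summits lay 2910 bp inside in the overexpression library and 3180 bp inside in control. A block 2.9 to 4.0 kb inside had 12, 14 and 14 reads in the overexpression library, and control had 1 summit of 18 reads (10.7 to 28.4) there. Upstream, 4133 bp before the start, the overexpression library had 14 reads and control 14 reads at 4393 bp, within the noncoding gene LINC01412. The peak near the far end, 130248 bp from the start, had 9 reads in the overexpression library and 11 in the control library, and another at 26224 bp had 11 and 6 reads. In the 4 overlapping pairs of ZEB2 the ratios ran from 0.86 to 2.03, with 1 inside every counting interval.

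SNAI1 encodes Snail, a zinc finger repressor of E-cadherin, on chromosome 20 (49982980 to 49988886). It had 1 summit in the overexpression library, 1291 bp inside with 17 reads (9.9 to 27.2) and a fold of 2.75, and 0 in control. A summit in the overexpression library and none in the control library was the pattern at 6.39% of protein-coding genes, and the reverse at 4.63%. At control depth the 17 reads correspond to 18.8, and 15 would have been needed for a call on that local background, which was 3.88 times the genome average. The margin is within counting error and the need is met largely by construction, so the missing call in control does not establish a difference at SNAI1.

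SNAI2 encodes Slug, on chromosome 8 (48917598 to 48921429), and had fewer summits in the overexpression library, as did 48.8% of protein-coding genes. Control had summits of 18 reads (10.7 to 28.4) at 102 bp inside the start, of 13 reads at 445 bp before it and of 15 reads at 2085 bp before it. The overexpression library had 1 summit, 554 bp before the start, with 14 reads (7.7 to 23.5). It overlapped the control interval with a ratio of 1.19 (0.52 to 2.75) over the nearest control summit. The control summit of 15 reads lay in an interval called in control alone. At their lower counting limit 0 of the 12 such control summits of the 10 genes met the pileup needed in the overexpression library. The missing overexpression call therefore does not establish a difference at SNAI2. The noncoding gene LOC107986942 begins 128 bp from SNAI2 and covers the upstream summits of both libraries.

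TWIST1 encodes a helix-loop-helix factor that binds E-boxes, on chromosome 7 (19113047 to 19117636). It had the densest peaks of the 10 genes in the overexpression library, with 5 summits in a window of 14.6 kb, a density above that of 99.7% of protein-coding genes. Control had 3, above 96.6%. By intervals the order was the opposite, with 2 in the overexpression library and 3 in control. A single overexpression interval of 1402 bp covered the start, with summits of 16 reads 81 bp before it and of 15, 15 and 18 reads at 334, 571 and 1021 bp inside. Control had 12 reads (6.2 to 21.0) at 441 bp inside and 9 reads (4.1 to 17.1) at 584 bp before the start. At the far end both libraries had a peak inside the noncoding gene LOC124901597, with 16 reads in the overexpression library and 12 in the control library, 62 bp apart (ratio 1.48, 0.66 to 3.42).

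Across the 10 windows, 23 of 41 overexpression intervals shared at least 1 bp with a control interval, 56.1% (Wilson interval 41.0 to 70.1). Of 35 control intervals, 23 overlapped an overexpression interval, 65.7% (49.2 to 79.2). Over the whole lists these shares were 67.4% of overexpression intervals and 43.0% of control intervals. Overlapping summits formed 24 pairs, a median of 92.0 bp apart. The ratio of relative pileups was above 1 in 18 of them, with a median of 1.32 and a range of 0.62 to 2.06. In the 12 pairs within 100 bp of each other the median was 1.35, with 9 above 1, where all 41021 such pairs of both lists had a median of 1.11, with 58.7% above 1. The interval of the ratio, as rounded, excluded 1 at 0 of the 24 pairs, and the ZEB1 pair with a ratio of 2.04 had a lower limit of 1.00. No difference was thus established at a paired site of these genes, but intervals this wide do not show that the sites were alike.

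**Figure D4:**
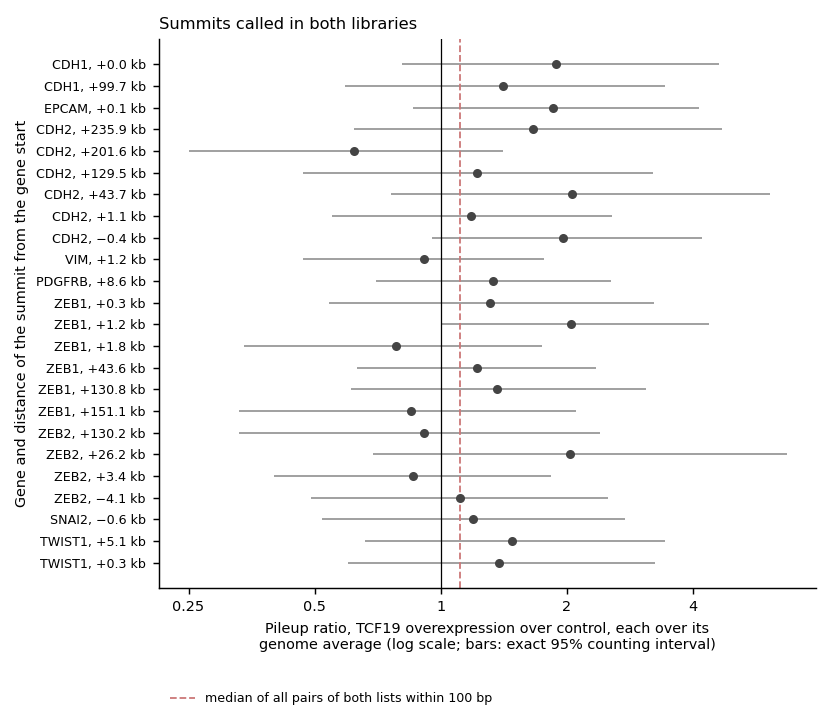
Ratio of relative pileups, overexpression over control (log axis), at the 24 summit pairs, with exact 95% counting intervals; the dashed line is the median of all pairs of both lists within 100 bp (1.11). Points range from 0.62 at CDH2 to 2.06 at CDH2 and every interval, as rounded, reaches 1, for 1 ZEB1 pair only at its lower limit of 1.00.

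The intervals called in 1 library alone were 18 in the overexpression library and 12 in the control library. The overexpression summits in them had 9 to 23 reads and lay in 7 genes, 6 of them at PDGFRB, and the control summits had 6 to 16 reads and also lay in 7 genes. Brought to the depth of the other library, 19 of 19 such overexpression summits and 10 of 12 control summits met the pileup needed there for a call at equal relative background. With the lower counting limit in place of the pileup, 3 of the 19 overexpression summits and 0 of the 12 control summits did. Control was the deeper library and had the lower lowest called −log10 p (2.822, against 3.005 in the overexpression library). Overexpression summits therefore met the pileup needed largely by construction, and these counts cannot be set against each other. The highest fold, the authors' value, over the 10 windows was 6.47 in the overexpression library (ZEB1, 130815 bp from the start) and 7.36 in control (CDH2), and 3.88% of all overexpression and 0.722% of all control summits had a higher one.

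Other genes of the transition were counted in 4 lists, by a summit within 1000 bp of either gene end, which 64.8% of protein-coding genes had in the overexpression library and 54.6% in the control library. Epithelial genes had one at 23 of 30 in the overexpression library and 17 of 30 in control. Mesenchymal genes had one at 18 of 30 and 16 of 30, and genes of TGF-beta, PDGF and other inducers at 14 of 22 in each library. Further transcription factor genes of the transition had one at 11 of 16 in the overexpression library and 6 of 16 in control. The median summit density was 0.795 per 10 kb in the overexpression library and 0.830 in the control library for epithelial genes. In the same order it was 0.381 and 0.562 for mesenchymal genes and 0.422 and 0.625 for the inducers. For transcription factor genes it was 1.24 and 0.727, but their total of summits had the opposite order, with 69 in the overexpression library and 75 in control. The totals were 138 and 167 for epithelial genes, 93 and 134 for mesenchymal genes and 109 and 158 for the inducers.

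**Figure D5:**
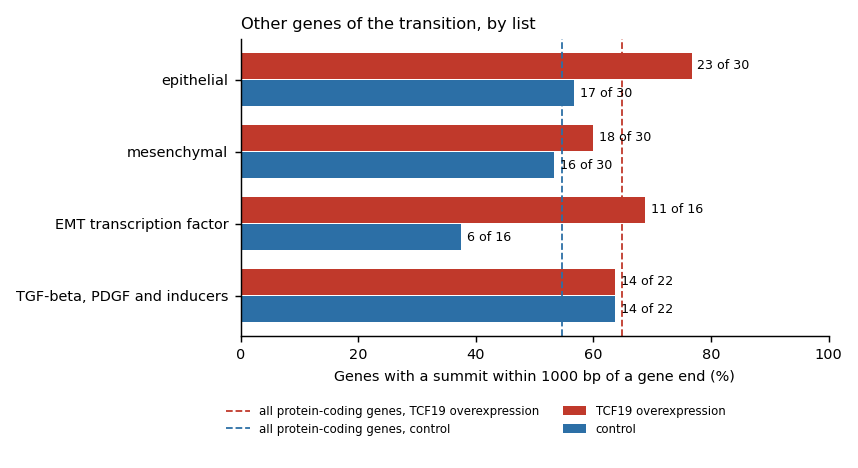
Share of genes of each list with a summit within 1000 bp of a gene end (horizontal axis, %), overexpression above control, with the counts beside the bars; dashed lines give the share of all protein-coding genes (64.8% and 54.6%). The transcription factor list has 11 of 16 genes in the overexpression library and 6 of 16 in control.

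In the epithelial list, 7 genes had a summit within 1000 bp of a gene end in the overexpression library alone and 1, GRHL2, in control alone (16 reads, 9.1 to 26.0). Among those in the overexpression library alone, CDH3, which encodes P-cadherin, had 22 reads (13.8 to 33.3) and CLDN7, a claudin gene, had 20 reads (12.2 to 30.9). MUC1 (a mucin gene), LSR (of tricellular junctions) and KRT19 (a keratin gene) had 19, 17 and 15 reads. The 16 epithelial genes with summits in both libraries were compared by the highest gene-end summit of each library, wherever it lay. Reads were more in the overexpression library at 13 and in control at 3, with a median ratio of relative pileups of 1.33. The summits compared can lie far apart, as at TJP1 (29968497 in the overexpression library and 29699935 in control). These are therefore not ratios of paired sites, and the same measure was used for the other lists. No value of this measure for all protein-coding genes is available here. Whether the counts and median ratios are particular to the lists was therefore not tested. A summit in the overexpression library alone was the pattern at 16.0% of all protein-coding genes, and in control alone at 5.84%. KRT8 and KRT18, overlapping genes of simple-epithelium keratins, shared 1 overexpression summit of 27 reads at 52949033, which was counted for both. The highest control summit had 28 reads at 52897470 for KRT8 and 22 reads at 52949311 for KRT18. The second of these lay near the shared overexpression summit. ESRP1, an epithelial splicing regulator, had 27 reads (17.8 to 39.3) in the overexpression library, at 94640677. In control it had 12 (6.2 to 21.0), at 94642109.

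Of the 16 mesenchymal genes with summits in both libraries, 8 had more reads in the overexpression library and 8 more in control, and the median ratio of relative pileups was 1.13. The genes named next were chosen for the highest pileups. ITGA5, the integrin alpha-5 gene, had 31 reads (21.1 to 44.0) in the overexpression library and 23 (14.6 to 34.5) in control. FBN1, the fibrillin gene, had 23 and 15 reads, SPARC, a matrix protein gene, 22 and 12, and CNN1, a calponin gene, 22 and 20. MMP14, a membrane matrix protease gene (20 reads), and TPM2, a tropomyosin gene (17 reads), were seen in the overexpression library alone, and 0 genes of the list in control alone. In the transcription factor list HMGA2, a chromatin architectural protein gene, had 36 reads (25.2 to 49.8) in the overexpression library. In control it had no called summit within 1000 bp of a gene end, and summits elsewhere in the gene were not counted here. SOX9, FOXC2, FOXC1 and KLF8 shared that pattern with 24, 18, 17 and 8 reads. Of the 6 genes of that list with summits in both libraries, 3 had more reads in the overexpression library, 2 more in control and 1 the same number, with a median ratio of 1.18. GSC, the goosecoid gene, had 32 reads in the overexpression library and 28 in the control library. Local background was high at several of these, 6.72 times the genome average at SOX9 and 5.31 times at FOXC1 in the overexpression library. Of the 13 inducer genes with summits in both libraries, 10 had more reads in the overexpression library, 2 more in control and 1 the same number, with a median ratio of relative pileups of 1.34. Of the highest pileups in that list, JAG1, a Notch ligand gene, had 32 reads (21.9 to 45.2) in the overexpression library and 19 (11.4 to 29.7) in control. HIF1A, the hypoxia factor gene, had 28 and 16 reads and SMAD3, a TGF-beta signal transducer gene, 25 and 14. SMAD7, an inhibitor of that pathway, was seen in the overexpression library alone (22 reads) and the receptor gene TGFBR1 in control alone (15 reads). In each gene named here with summits in both libraries, the counting intervals of the libraries overlapped. Such overlap does not show that the libraries were alike, and intervals of the ratio were not computed for the genes of these lists. As for the epithelial list, the counts of genes with more reads and the median ratios have no all-gene value beside them.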

How the data were processed

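TCF19 ChIP-seq peak lists of 2 libraries, 1 per group, were analysed. The submitters' processing notes name hg38, the aligner BWA 0.7.12 and the peak caller MACS2 2.1.0. Whether an input library was used is not given in the sources used here, nor are the settings of the caller. The deposited files give per summit a score, a fold enrichment (a ratio, the authors' value), a −log10 p-value and a −log10 q-value, which starts at 1.3011 in both lists. The deposited score was not used in any result, and the deposited fold was used within its own list.

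Whole pileups were recovered from the deposited fold and −log10 p by solving fold = (pileup + 1) / (background + 1) with a Poisson tail, with a misfit of at most 0.001. This gave a pileup at 99.996% of overexpression and 99.997% of control summits; the recovery was tested on simulated data. Read totals were not in the lists, so depth was taken as the genome-average pileup, the most frequent background. Pileups have exact Poisson intervals, ratios exact binomial intervals and shares Wilson intervals. The intervals do not cover PCR copies among the reads, nor the choice of a summit as the highest point of its peak. The pileup needed for a call used the lowest called −log10 p of the other library and the same background relative to the genome average, not the other library's own background there.

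Gene spans are those of RefSeq for GRCh38.p14. Gene strand came from the RefSeq promoter table, which has entries for 5 of the 10 genes (CDH2, VIM, PDGFRB, ZEB1 and ZEB2). For CDH1, EPCAM, SNAI1, SNAI2 and TWIST1 it is general knowledge. Exons were not used. The promoter table lacks chromosome 8, which is outside the medians over all gene starts. CANNTG reads the same on both strands and includes CACCTG and CAGGTG.

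The members and lists were chosen with earlier results of these data known. From each further list, the text names the 3 genes of highest pileup, with ties, and up to 6 genes called in 1 library alone, by fold; some genes that this rule selects are not reported here. Python 3.11.15, pandas 2.3.3, numpy 2.4.6, scipy 1.17.1 and matplotlib 3.10.9 were used.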

Additional observations from a re-analysis of the deposited data

How the results depend on the processing

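Of 40 alternatives to the counts and overlaps over the 10 genes, 31 stayed within 1.5 times of the main count or inside its Wilson interval, and 9 moved. With a deposited fold of at least 4, the windows held 24 overexpression and 18 control summits, and 4 genes in the overexpression library and 2 genes in control had a summit within 1000 bp of a gene end, against 7 in each library without that limit. With control cut to the 111569 summits of its highest folds, control had 23 summits and 3 genes with a gene-end summit. With summits within 100 bp required, 29.3% of overexpression and 34.3% of control intervals were shared, and with an overlap of at least 50% of each interval 48.6% of control intervals were. Fewer summits pass by construction in these settings. A limit of 3 times the genome average on local background, chosen after seeing the data, left 34 overexpression and 36 control summits, so the library with more summits changed. No paired analysis was possible because each group had 1 library. Depth limits single sites: at the genome-average background 6 reads were the lowest called pileup in either library.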
